A study of Mus musculus with 8 samples.

Results

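The 10 imprinted genes described here were Peg3, Ndn, Magel2, Snrpn, Dlk1, Meg3, Igf2, H19, Cdkn1c and Grb10, out of 22878 gene symbols listed in both deposited tables of embryonic mouse hypothalamus. They were picked out of the tables by symbol, and the list of symbols was drawn up with earlier results of these data known. For 8 of them the symbol stood alone in every library. At the early stages Snrpn shared a row with Snurf, and Meg3 shared one with the microRNA genes Mir770 and Mir1906-1, so those rows were taken for Snrpn and Meg3. Total RNA from dissected hypothalamus was sequenced from wild-type embryos and from embryos mutant for Foxd1, a forkhead transcription factor gene, to ask what its loss does to anterior hypothalamic neurons. There were 8 libraries, with 1 per genotype at E12.0 (embryonic day), 1 per genotype at E12.5 and 2 per genotype at E17.5. The labels describe 8 Foxd1-null and 10 control embryos and pooled RNA, and name neither the mutant allele nor the strain. Their wording for controls allows either genotype, so genotype follows each library's own label. Foxd1 was measured at 24.9 and 30.3 FPKM in the wild-type libraries of E12.0 and E12.5 against 2.766 and 2.497 in the mutant ones, and at 1.96 to 3.90 against 0.230 to 0.396 at E17.5. FPKM is a fragment count scaled by transcript length and library size.

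An imprinted gene is transcribed mainly from the copy inherited from 1 parent, as set by DNA methylation laid down in the egg or sperm. Imprinted genes lie in clusters, in which protein-coding genes are often neighbours of long noncoding RNAs read from the opposite parental copy. Many act on fetal growth, placenta and brain, and several serve the hypothalamic control of feeding, body temperature and maternal care. Peg3, Ndn, Magel2, Snrpn, Dlk1 and Igf2 are expressed from the paternal copy, and Meg3, H19 and Cdkn1c from the maternal copy. Grb10 in the mouse is read from the maternal copy in most tissues and from the paternal copy in neurons. Which parental copy the reads came from was not analysed here.

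For Snrpn, Igf2, Grb10 and Meg3 the E17.5 table gave a level for each transcript, and these transcripts began at different sites. The 200 bases before the main start of Igf2 and before both starts used at E17.5 by Snrpn, Grb10 and Meg3 are shown because the levels below are split by start. The window of Magel2, a gene with 1 start, is set beside them. They are from RefSeq on build GRCm38.p6, whose promoter table held 8 of the 10 genes. Each is read 5′ to 3′ on the gene's strand. Each CG, the dinucleotide at which DNA methylation is placed, is in capitals. The measured Snrpn transcripts of the downstream start began 88 bases from the start that its window precedes.
Snrpn, downstream start, chr7:60005200-60005399, minus strand: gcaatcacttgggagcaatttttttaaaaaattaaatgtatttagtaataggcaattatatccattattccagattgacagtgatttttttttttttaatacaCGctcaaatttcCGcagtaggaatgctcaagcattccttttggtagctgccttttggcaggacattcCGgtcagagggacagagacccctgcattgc
Snrpn, upstream start, chr7:60140226-60140425, minus strand: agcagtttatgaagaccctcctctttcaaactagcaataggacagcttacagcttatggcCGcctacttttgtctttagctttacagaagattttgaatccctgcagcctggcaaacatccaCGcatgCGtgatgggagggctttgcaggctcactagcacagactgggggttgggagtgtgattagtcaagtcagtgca
Igf2, main start, chr7:142657497-142657696, minus strand: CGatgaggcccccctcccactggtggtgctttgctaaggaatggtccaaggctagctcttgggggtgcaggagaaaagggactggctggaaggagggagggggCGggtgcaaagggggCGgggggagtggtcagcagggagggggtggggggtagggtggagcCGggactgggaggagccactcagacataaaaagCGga
Grb10, upstream start, chr11:12037421-12037620, minus strand: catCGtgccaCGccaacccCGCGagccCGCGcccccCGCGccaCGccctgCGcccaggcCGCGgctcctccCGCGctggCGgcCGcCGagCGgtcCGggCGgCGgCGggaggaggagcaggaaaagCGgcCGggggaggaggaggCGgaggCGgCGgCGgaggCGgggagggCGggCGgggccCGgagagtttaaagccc
Grb10, downstream start, chr11:12027972-12028171, minus strand: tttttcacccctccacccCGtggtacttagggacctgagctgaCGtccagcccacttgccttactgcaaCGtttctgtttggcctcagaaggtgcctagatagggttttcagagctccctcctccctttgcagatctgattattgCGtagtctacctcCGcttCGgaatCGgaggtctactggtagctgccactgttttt
Meg3, upstream start, chr12:109540796-109540995, plus strand: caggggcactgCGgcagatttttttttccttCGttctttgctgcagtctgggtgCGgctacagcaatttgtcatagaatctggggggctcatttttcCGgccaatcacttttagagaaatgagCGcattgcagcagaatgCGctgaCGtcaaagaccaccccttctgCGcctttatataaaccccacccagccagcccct
Meg3, downstream start, chr12:109545198-109545397, plus strand: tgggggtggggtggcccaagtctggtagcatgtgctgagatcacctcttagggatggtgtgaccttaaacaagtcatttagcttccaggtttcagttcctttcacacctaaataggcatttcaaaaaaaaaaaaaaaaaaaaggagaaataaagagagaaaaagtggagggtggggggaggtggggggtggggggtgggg
Magel2, chr7:62376779-62376978, plus strand: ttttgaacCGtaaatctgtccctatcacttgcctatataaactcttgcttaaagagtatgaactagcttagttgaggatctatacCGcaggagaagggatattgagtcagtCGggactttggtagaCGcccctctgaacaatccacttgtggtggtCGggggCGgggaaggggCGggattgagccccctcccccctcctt

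The windows differed most in CG content. The upstream Grb10 window held 32 CG dinucleotides, a number reached by 1.77% of 32851 RefSeq promoter windows of the same length, whose median was 5. The downstream Grb10 window held 7. The upstream Meg3 window held 8 and the downstream one 0, that of Magel2 held 7, that of the main Igf2 start 5, and the downstream and upstream Snrpn windows held 3 each. The letters TATAAA, searched on both strands, occurred in the Magel2 and upstream Meg3 windows and in 9.96% of all windows. The palindrome CGCATGCG, chosen after the sequences were seen, occurred in the upstream Snrpn window but not in the downstream one. Over all windows of the listed genes it was found in 4 of 16, against 1.44% of all windows. These were 1 of Ndn and 3 upstream ones of Snrpn that resemble each other. The start behind the Ndn window lay 1708 bases from that of the measured Ndn transcript. The palindrome does not overlap TATAAA, and such matches only describe letters in the window.

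Each library listed 11572 to 13219 genes at or above 1 FPKM. The spacing of low FPKM values put the E17.5 depth at 30.2 to 43.5 M fragments. At E12 the steps did not give a firm estimate, with 30.8% to 41.2% of low values within 0.1 of a whole fragment against 78.9% to 80.4% at E17.5. The E12.0 pair stood apart. There 9.55% of 11630 genes differed by at least 1.5-fold between the 2 genotypes, 6.63% lower and 2.92% higher in the mutant library, against 1.32% of 12151 at E12.5. All 10 hypothalamic regulators used as a tissue check, among them Nkx2-1, Otp and Sim1, were detected in every library. Their summed level was 186 and 106 FPKM in the wild-type and mutant libraries of E12.0, 157 and 184 at E12.5, 60.3 and 55.8 in wild-type and 50.1 and 40.0 in mutant libraries at E17.5. The labels do not say whether pools came from separate litters, so p-values measure the spread between these libraries. Sex-linked genes differed between libraries. In the first wild-type library of E17.5 the Y-linked genes Eif2s3y, Uty and Kdm5d were at 0, against 2.31 to 14.0 FPKM for these genes in the other 3. At E12 the 4 Y-linked genes used were higher in the mutant library at both stages and Xist was lower, all 5 at an unadjusted p under 0.05 and none past the adjusted threshold. The part of sex in the differences below was not tested at any stage.

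The 10 genes together carried 0.320% to 0.435% of the FPKM outside small RNA genes. Ndn was the highest of the 10 in every library and, per length, stood above 99.3% or more of the genes listed in its library. In the early libraries Meg3 and Cdkn1c came next and Igf2 was lowest of the 10. In the E17.5 libraries Snrpn and Meg3 came next and Magel2 was lowest. The early and late tables were made separately, so levels are described but not tested between stages. All 4 values at E17.5 lay above all 4 early values for Peg3, Snrpn, Igf2 and H19, as they did for 45.2% of 12601 genes. They lay below for Magel2, Dlk1, Meg3, Cdkn1c and Grb10, as they did for 17.8% of genes. Ndn alone of the 10 overlapped between the stages. The same genes stood above and below by rank within each library and after rescaling to genes in both tables. On shared transcripts Snrpn lay below, but there early gene rows were set against late levels of part of the transcripts.

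**Figure D1:**
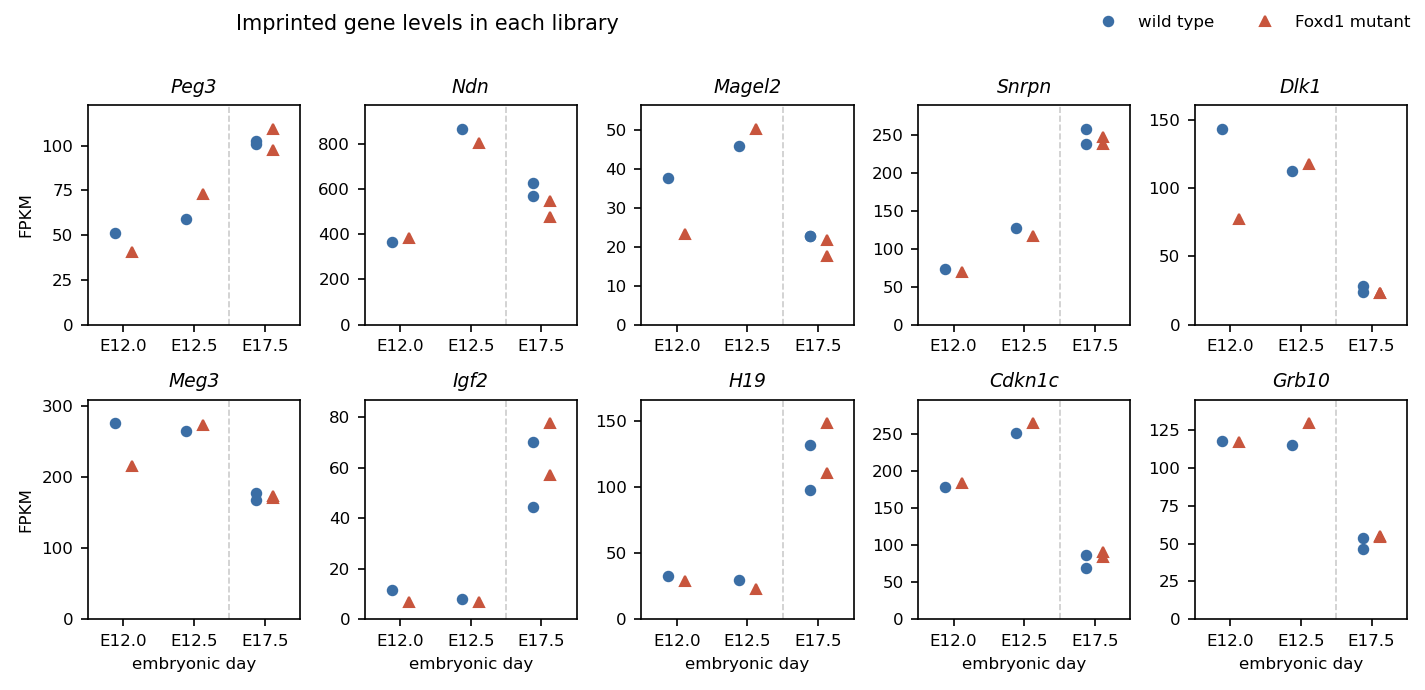
FPKM (vertical axis, from 0, a separate scale for each gene) of the 10 imprinted genes by embryonic day, with 1 point per library, circles for wild type and triangles for Foxd1 mutant. The dashed line separates the 2 tables made separately, and the mutant point at E12.0 is below the wild-type one for Dlk1 (77.6 against 144), Igf2 (6.86 against 11.6) and Magel2 (23.2 against 37.6), the 3 genes with a ratio beyond 1.5-fold there.

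Across genotypes, 0 of the 10 genes passed an adjusted p of 0.05 at E17.5, where 0.00756% of 13235 genes did. None passed at E12, with 0.0335% of 11952 genes passing, or over all stages, with 0% of 12601. The test of whether the genotype difference at E17.5 differed from that at E12 also called none of the 10, and 0.0317% of 12601 genes overall. These are limma tests on log2 of FPKM + 1 with Benjamini-Hochberg adjustment over all genes. At an unadjusted p under 0.05 there was 1 of the 10 at E17.5 (Ndn) and 1 at E12 (Igf2), against 5.70% and 1.41% of all genes. No other tool was run, because FPKM allow no count model. At E17.5, 5 of the 10 were higher and 5 lower in the mutant libraries, with a median log2 difference of 0.01 against 0.00 over all genes. Over all stages 7 were lower, with a median of -0.07 against 0.00 and 50.7% of all genes higher. In the test between stages 9 had a fitted value above 0 (median 0.09), against 50.4% of all genes. At E12 8 were lower, with a median of -0.13 against 0.01 and 52.2% of all genes higher. For 6 of the 10 the sign differed between the E12.0 and E12.5 pairs, as for 51.8% of all genes, so this is not a shift shared by both pairs. Of 10 markers of neurons 9 also had a lower fitted value in the mutant at E12 (median -0.15), and all 10 markers of proliferating cells had a higher one (median 0.21), with 0 of either list past the adjusted threshold. At E17.5 7 of the 10 neuron markers and all 10 proliferation markers were higher, with medians of 0.04 and 0.21. The summed proliferation markers came to 334 FPKM (wild type) and 392 (mutant) in the E12.0 pair and to 305 and 348 in the E12.5 pair. In the late libraries the sum was 62.2 and 57.4 for wild type against 62.6 and 80.7 for mutant. Their part in the values of the 10 genes was not tested. None of the 10 lay on 1 side of its stage's wild-type libraries in all 4 mutant libraries, as 5.86% of genes did below and 5.77% above.

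**Figure D2:**
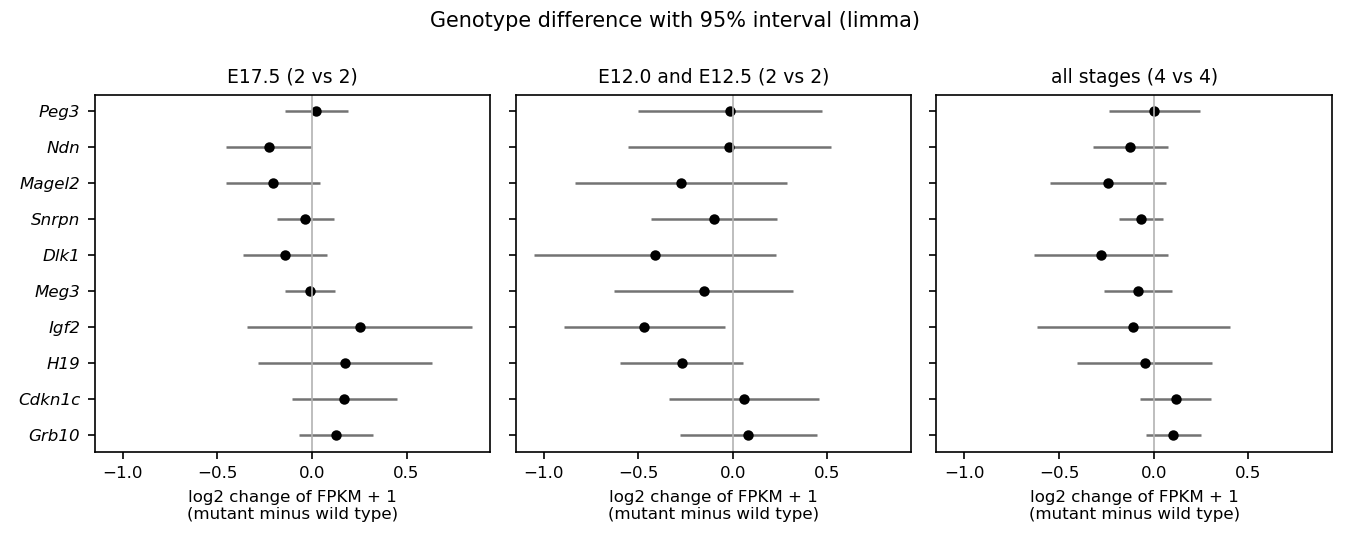
Difference of log2(FPKM + 1) between Foxd1-mutant and wild-type libraries for each gene (points) with its 95% interval (lines), at E17.5, at E12.0 and E12.5 with stage as a block, and over all stages. The intervals contain 0 for all but Ndn at E17.5 (-0.45 to -0.01) and Igf2 at E12 (-0.89 to -0.04), and neither passed after adjustment.

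Ndn, Magel2 and Snrpn lie in the Prader-Willi domain on chromosome 7. Ndn encodes necdin, a MAGE-family protein of postmitotic neurons that restrains proliferation and supports survival. Its level was 364 FPKM in the wild-type and 383 in the mutant library of E12.0, and 868 and 806 at E12.5. From E12.0 to E12.5 it was 2.38 times as high in wild type and 2.11 times in mutant. At E17.5 it was 570 and 626 in wild-type and 547 and 475 in mutant libraries, so that both mutant values lay below both wild-type ones. The genotypes did not overlap in this way for 43.1% of all genes at E17.5, 22.2% with the mutant lower. The means were 598 ± 39.1 (SD, n = 2) and 511 ± 50.5 (SD, n = 2). The log2 difference was -0.23 (SE 0.09), with an unadjusted p of 0.046 and an adjusted p of 0.689 by limma. Without the second mutant library it was -0.13, with an adjusted p of 0.913, and over all alternatives the adjusted p ran from 0.0827 to 1.

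Magel2 encodes another MAGE protein, which works with the ubiquitin ligase TRIM27 in the recycling of membrane proteins. It is strongly expressed in the hypothalamus, and its loss is part of Prader-Willi and Schaaf-Yang syndromes. Its level was 37.6 FPKM in the wild-type and 23.2 in the mutant library of E12.0, and 45.7 and 50.2 at E12.5. The direction therefore turned between the 2 early stages. At E17.5 the level was 22.8 and 22.7 in wild-type against 21.8 and 17.6 in mutant libraries. The groups did not overlap, with the mutant lower, as for 22.2% of all genes. The lowest value was that of the second mutant library. The log2 difference at E17.5 was -0.21 (SE 0.10, adjusted p = 0.689 by limma), and without that library it was -0.06.

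The second mutant library of E17.5, lowest of the 4 for both Ndn and Magel2, was also lowest for the summed hypothalamic regulators. It had the highest summed level of 8 telencephalic genes, 91.7 FPKM against 36.0 to 39.5 in the others, and of 7 choroid plexus genes, 355 against 11.6 to 144. Ttr, the transthyretin gene, led the latter at 334 FPKM, and none of the 7 was at 0 in that library. Of the 10 hypothalamic regulators 9 had a lower fitted value in the mutant at E17.5, with none past the adjusted threshold. At an unadjusted p under 0.05 by limma there were 5 of them, against 5.70% of all genes. All 8 telencephalic genes had a higher fitted value (median 0.61), 3 of them at that unadjusted level and none past the adjusted threshold. The part of tissue composition in the Ndn and Magel2 values was not tested. In bulk samples, fewer cells of a type and less RNA per cell cannot be told apart.

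Snrpn encodes a core protein of spliceosomal particles in neurons, and its upstream region is the imprinting centre of the domain. Its row gave 73.5 FPKM in the wild-type and 69.5 in the mutant library of E12.0, and 127 and 117 at E12.5. It gave 239 and 258 in wild-type and 247 and 238 in mutant libraries at E17.5. Genotypes overlapped at E17.5, with a log2 difference of -0.03 (SE 0.06, 95% interval -0.19 to 0.12). The rows of the tables did not hold the same Snrpn transcripts. A transcript from the downstream start that carried 83.6% to 87.0% of Snrpn FPKM at E17.5 was not among those listed in the early row. Over the shared transcripts under the name Snrpn, the level at E17.5 was 32.6 to 40.5 FPKM, below the 69.5 to 127 of the early row. The early row also held the Snurf transcript. At E17.5 that transcript had its own row, at 12.57 to 14.15 FPKM, outside this sum. Early rows gave a level per gene and late rows a level per transcript, so the 2 sides are not like measures. For the shared transcripts named Snrpn the genotype difference at E17.5 was 0.22 (SE 0.06). It was not past the threshold and was in the opposite direction to that of the whole gene.

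By start, the downstream site shown above carried 220 and 242 FPKM of Snrpn in the wild-type libraries against 228 and 218 in the mutant ones at E17.5. The upstream site carried 18.4 and 16.4 FPKM in the wild-type libraries against 18.5 and 20.2 in the mutant ones, or 6.35% to 8.47%. The downstream share was 92.3% and 93.7% in wild-type and 92.5% and 91.5% in mutant libraries, so the genotypes overlapped.

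No gene of this domain was called in any of the 4 tests. With Ndn, Magel2 and Snrpn counted, these were 0 of 8 tested at E17.5 and at E12 and 0 of 7 in the other tests. Mkrn3, a zinc-finger gene known from the timing of puberty, was at 10.7 to 13.5 FPKM at E17.5 with a log2 difference of -0.17 (SE 0.09). Peg12, a gene next to it, was at 26.9 to 33.0 FPKM in the early and 3.07 to 3.76 in the late libraries. Ube3a, the Angelman syndrome gene, was at 50.2 to 53.3 at E17.5 and differed by 0.05 (SE 0.05). Of 8 genes for other MAGE proteins and partners, 0 passed in any test. All 8 had a fitted value above 0 at E12 and 6 of 8 below 0 at E17.5, with medians of 0.14 and -0.07 against 0.01 and 0.00 over all genes. Maged1, the most abundant MAGE gene of that list, gave 474 and 438 FPKM in the mutant libraries of E17.5 against 485 and 479 in the wild-type ones.

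Dlk1 and Meg3 lie in the Dlk1-Dio3 domain on chromosome 12. Dlk1 encodes a transmembrane protein of the Delta and Notch family that is shed from precursor cells and marks several hypothalamic neurons. Its level was 144 FPKM in the wild-type and 77.6 in the mutant library of E12.0, a ratio of 0.540. At E12.5 it was 113 and 117. Over both early stages the log2 difference was -0.41 (SE 0.25, adjusted p = 0.976 by limma). At E17.5 it was 28.3 and 23.6 in wild-type and 23.3 in each mutant library, with a difference of -0.14 (SE 0.09). The groups did not overlap at E17.5, with the mutant lower, as for 22.2% of all genes. The second wild-type library lay within 1 FPKM of the mutant ones.

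At E12.0 the mutant library was lower by more than 1.5-fold for 3 of the 10 genes, Dlk1, Magel2 and Igf2, against 6.63% of all genes in that direction. None of the 10 passed 1.5-fold at E12.5. With the wild-type E12.5 library left out, the early comparison rested on the E12.0 pair with the spread of the later libraries. Then the widest log2 differences were -0.88 for Dlk1, -0.68 for Igf2, -0.68 for Magel2 and -0.36 for Meg3. They had 1 library per genotype behind them, so no call is read from that fit. With all 4 early libraries none of these genes passed (adjusted p = 0.976 by limma for each). The early hypothalamic sum moved the same way at E12.0, 186 against 106 FPKM, and Nkx2-1 in it was at 39.8 against 13.1. Of the 10 genes in that sum, 6 had a lower and 4 a higher fitted value in the mutant at E12. The telencephalic sum was also lower in the mutant library of E12.0, 79 against 61.3 FPKM. Whether the dissection or the depth of that pair has a part in these differences was not tested.

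At E17.5 the Dlk1 row also held a noncoding transcript that was not in the early row and carried 55.1% to 73.3% of its FPKM. The coding transcripts alone, which the tables share, amounted to 6.31 to 10.4 FPKM at E17.5 against 77.6 to 144 early. The mean of the early libraries was 4.58 times that of the late ones on the whole rows and 13.4 times on shared transcripts. As for Snrpn, the early row gave a level per gene and the late rows a level per transcript. The ratio of 13.4 therefore sets unlike measures side by side, and no size of change is read from it. Over shared transcripts the genotype difference at E17.5 was 0.20 (SE 0.20), opposite in direction to the whole gene and not past the threshold.

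Meg3 is a long noncoding RNA of the maternal copy of the domain, abundant in neurons. The E12.0 libraries gave 276 FPKM for the wild type and 215 for the mutant, and those of E12.5 gave 264 and 273. Late values were 168 and 178 in wild-type and 170 and 174 in mutant libraries, and the mutant values lay between the wild-type ones. The difference at E17.5 was -0.01 (95% interval -0.14 to 0.12). By start, the upstream site shown above carried 121 and 124 FPKM in the wild-type libraries against 117 and 119 in the mutant ones. The downstream one carried 47.2 and 53.0 against 52.7 and 54.1. The upstream share was 72.0% and 70.1% in wild-type and 69.0% and 68.8% in mutant libraries, a separation of about 1 percentage point that was not tested.

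In the rest of that domain the wild-type E17.5 libraries gave 299 and 309 FPKM for Rian, a noncoding RNA downstream of Meg3, and the mutant ones 288 and 297, a log2 difference of -0.06 (SE 0.05). Rtl1, a retrotransposon-derived gene, was at 4.23 to 4.82 at E17.5. For Dio3, the deiodinase that inactivates thyroid hormone, the wild-type libraries gave 3.80 and 3.63 FPKM and the mutant ones 4.80 and 4.21. Its log2 difference was 0.22 (SE 0.08), with an unadjusted p of 0.0425 and an adjusted p of 0.689 by limma. Begain, at the other end of the domain, differed by -0.23 over all stages (SE 0.08, adjusted p = 0.748 by limma). Mirg, a microRNA host transcript of the domain, had the widest E12 difference of its genes, -1.08 (SE 0.69, adjusted p = 0.976 by limma). It stood at 11.9 FPKM in the wild-type and 16.5 in the mutant library of E12.0, then at 129 and 20.6 in the E12.5 pair, so that the difference rested on the wild-type library of E12.5. In the domain as a whole 0 of 7 tested genes passed in each of the 4 tests.

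Igf2, H19, Cdkn1c and Grb10 form the growth group. Igf2 encodes the fetal growth factor IGF2. H19 is the noncoding RNA that shares enhancers with it on the other parental copy. Igf2 gave 11.6 FPKM in the wild-type library of E12.0 against 6.86 in the mutant one, and 8.08 against 6.62 in the E12.5 pair. The mutant was thus lower at both early stages, with a log2 difference of -0.47 (SE 0.17), an unadjusted p of 0.0373 and an adjusted p of 0.976 by limma. At E17.5 it was 70.0 and 44.2 in wild-type and 77.5 and 57.0 in mutant libraries, and the groups overlapped. The mean difference there was 0.25 (95% interval -0.34 to 0.85), and without the second wild-type library it was -0.07. The genotype difference at E17.5 exceeded that at E12 by 0.72 (SE 0.35, adjusted p = 0.749 by limma).

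H19 gave 33.0 FPKM for the wild type and 29.1 for the mutant in the E12.0 pair, and 29.6 and 22.8 in the E12.5 pair. Its E17.5 values were 132 and 97.6 in wild-type and 148 and 111 in mutant libraries. Both mutant values were within or above the wild-type range, and the groups overlapped, with a difference of 0.17 (SE 0.19) that was -0.04 without the second wild-type library. The ratio of Igf2 to H19 was 0.453 to 0.532 in the 4 late libraries and 0.236 to 0.351 in the 4 early ones.

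Markers of meninges and mesenchyme ordered the E17.5 libraries as Igf2, H19 and Cdkn1c did. The summed level of 14 such genes, among them the matrix genes Dcn, Lum, Col1a1 and Col3a1, was 266 and 163 FPKM in the wild-type libraries of E17.5 against 296 and 213 in the mutant ones. For Grb10 only the lowest and the highest library matched. Per FPKM of that sum, Igf2 came to 0.262 to 0.271 in the 4 late libraries, H19 to 0.494 to 0.599, Cdkn1c to 0.306 to 0.423 and Grb10 to 0.187 to 0.285. In the early libraries the quotients were 0.589 to 0.870 for Igf2, 2.03 to 3.06 for H19, 13.3 to 23.6 for Cdkn1c and 8.85 to 12.4 for Grb10. The quotient thus held across the late libraries for Igf2 but not between the stages, and Cdkn1c and Grb10 were lower late, where the sum was higher. In the early libraries the sum was 9.51 to 13.3 FPKM, with 9 of the 14 genes under 1 FPKM in every early library. At E17.5 none of the 14 was under 1 FPKM in all libraries, and none was at 0. Of the 14, 13 had a higher fitted value in the mutant at E17.5, with a median of 0.33 and none past the adjusted threshold. At an unadjusted p under 0.05 by limma there were 5 of the 14, against 5.70% of all genes. That library order was not particular to meninges and mesenchyme. Sums of 12 endothelial genes (lowest 125, highest 151 FPKM) and of 8 pericyte and smooth muscle genes (lowest 45, highest 54.2) ranked the late libraries in the same way. The remaining marker sums did not. The part of any of these cell types in the Igf2 and H19 values was not tested.

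**Figure D3:**
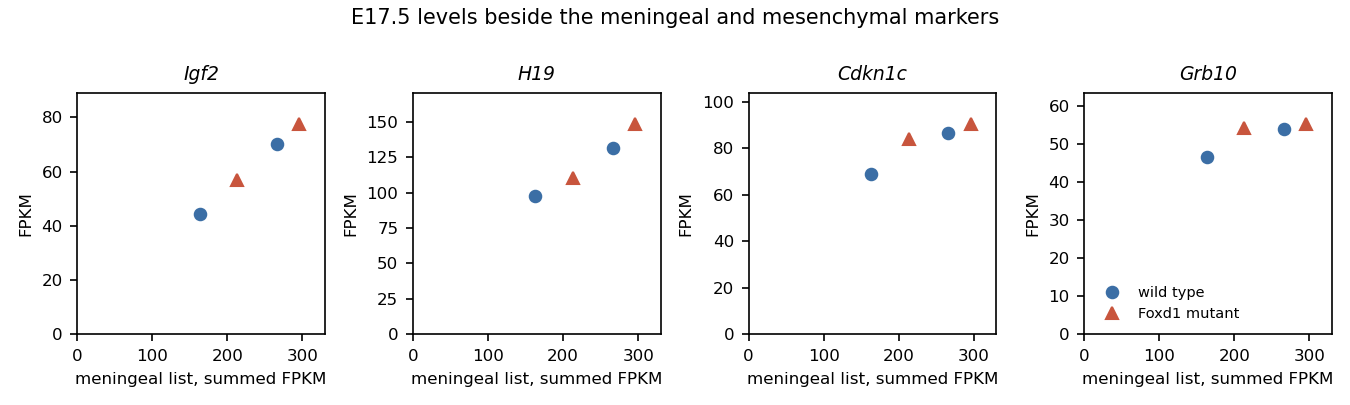
FPKM of Igf2, H19, Cdkn1c and Grb10 (vertical axes, from 0) against the summed FPKM of 14 meningeal and mesenchymal marker genes (horizontal axes) in the 4 E17.5 libraries, circles for wild type and triangles for Foxd1 mutant. The libraries keep the order 163, 213, 266 and 296 FPKM of the sum for Igf2, H19 and Cdkn1c, while for Grb10 only the lowest and the highest library match.

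By start, Igf2 at E17.5 came mainly from the site shown above, with 62.2 and 38.3 FPKM in the wild-type libraries against 71.2 and 50.2 in the mutant ones. That was 86.6% to 91.9% of the gene. The other two starts carried 3.61 to 5.93 and 0.745 to 3.22 FPKM. The share of the main start was highest in the library with the highest total and lowest in that with the lowest.

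Cdkn1c encodes p57, an inhibitor of cyclin-dependent kinases in cells leaving the cell cycle. The wild-type and mutant libraries of E12.0 gave 178 and 183 FPKM, and those of E12.5 gave 251 and 264. The late level was 86.6 and 69.0 in wild-type and 90.5 and 84.0 in mutant libraries, and the groups overlapped. The difference was 0.17 (SE 0.11) at E17.5 and 0.06 (SE 0.15) at E12. Of the 6 other inhibitors of that class, 3 were tested at E17.5 and 4 at E12, and 0 passed. Cdkn1b, which encodes p27 of the same family, gave 31.5 and 29.4 FPKM in the wild-type libraries of E17.5 against 31.4 and 35.8 in the mutant ones. Cdkn2d had a difference of -0.22 (SE 0.07) there, with an unadjusted p of 0.0275 and an adjusted p of 0.689 by limma.

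Grb10 encodes an adaptor that binds the insulin and IGF receptors and damps their signal. Wild-type and mutant levels were 118 and 117 FPKM in the E12.0 pair, then 115 and 130 in the E12.5 pair. At E17.5 both mutant values, 55.2 and 54.2, were above both wild-type ones, 53.9 and 46.4. Both mutant libraries were above both wild-type libraries for 20.9% of all genes. The means were 50.2 ± 5.29 (SD, n = 2) and 54.7 ± 0.657 (SD, n = 2), and the log2 difference was 0.13 (SE 0.08, adjusted p = 0.689 by limma). Over all stages it was 0.10 (SE 0.06, adjusted p = 0.748 by limma).

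The CG-rich upstream Grb10 start carried 52.4 and 44.8 FPKM in the wild-type libraries against 53.3 and 53.0 in the mutant ones, or 96.4% to 97.8% of the gene. The downstream start carried 1.21 to 1.84 FPKM. The neighbours of Grb10 on chromosome 11, Ddc and Cobl, were not called in any test. Ddc, the enzyme that makes dopamine and serotonin from their precursors, gave 12.6 and 15.2 FPKM in the wild-type libraries of E17.5 against 14.3 and 10.4 in the mutant ones.

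**Figure D4:**
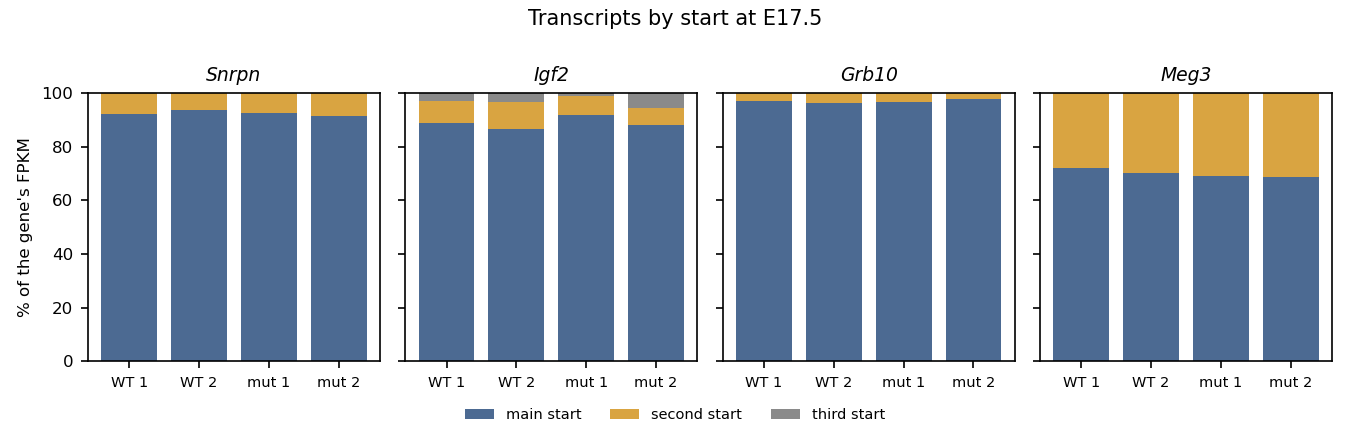
Share of each gene's FPKM (percent, stacked to 100) carried by transcripts of each start at E17.5, in 2 wild-type (WT) and 2 Foxd1-mutant (mut) libraries. The main start is the downstream one for Snrpn and the upstream one for Grb10 and Meg3, and its share stays between 68.8% (Meg3) and 97.8% (Grb10).

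Receptors, binding proteins and readers of the IGF pathway were taken as a list of 22 genes, and 0 passed in any test. At E17.5 13 of 18 tested had a higher fitted value in the mutant (median 0.05) and at E12 13 of 16 a lower one (median -0.08), against 0.00 and 0.01 over all genes. Igf2r, the imprinted receptor that clears IGF2, was at 13.28 to 17.48 FPKM early and 19.6 to 20.7 late. Igf1r, which carries the growth signal, was at 11.7 to 12.6 at E17.5. Igfbp3, a secreted binding protein, gave 8.70 and 8.12 FPKM in the wild-type libraries against 9.49 and 11.6 in the mutant ones. The difference for Igfbp3 was 0.29 (SE 0.10), with an unadjusted p of 0.0312 and an adjusted p of 0.689 by limma. Igf2bp1, an RNA-binding protein that acts on Igf2 transcripts, was at 20.3 to 41.1 FPKM early and 1.36 to 1.82 late.

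Peg3 encodes a zinc-finger protein that is needed for normal maternal care and energy balance in mice. In the E12.0 pair the wild-type library gave 51.3 FPKM and the mutant one 40.4, while the E12.5 pair gave 58.8 and 72.9. The direction thus turned between the early stages. The late level was 103 and 101 in wild-type and 109 and 97.7 in mutant libraries, with the wild-type values between the mutant ones. The difference at E17.5 was 0.02 (95% interval -0.14 to 0.19), and over all stages 0.00 (95% interval -0.23 to 0.24). Usp29, read from the same region in the other direction, was at 30.0 and 31.4 in wild-type and 32.7 and 30.5 in mutant libraries of E17.5. Zim1, the next gene, was at 13.8 to 15.7 FPKM there, and 0 of 3 genes of the domain passed in any test.

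Among other imprinted genes, 0 of 25 tested paternally expressed and 0 of 32 maternally expressed ones passed at E17.5, and 0 of 23 and 0 of 27 at E12. The list medians at E17.5 were 0.04 and 0.00, and at E12 -0.06 and -0.03. In the paternal list Nnat was the most abundant, at 3424 to 3683 FPKM at E17.5. The largest E17.5 differences in that list were those of Airn (-0.35, SE 0.10), Dio3 and Slc38a4 (0.21, SE 0.14). Airn, at 0.798 to 1.44 FPKM there, runs antisense to Igf2r, and the sources used here do not say whether strand was used in counting. Peg10, a retrotransposon-derived gene, gave 46.5 and 45.6 FPKM in the wild-type libraries against 53.6 and 49.4 in the mutant ones, with a difference of 0.16 (SE 0.06) and an unadjusted p of 0.0382. In the maternal list Dlx5, a homeobox gene of forebrain interneurons, differed by 0.26 (SE 0.07), with an unadjusted p of 0.00807 and an adjusted p of 0.689 by limma. The widest E12 differences were those of Plagl2, Peg10 and Plagl1 in the paternal list (-0.54, -0.53 and -0.39). In the maternal list they were those of Mirg, Dlx5, Zim1 and Ago2 (-1.08, -0.55, -0.40 and -0.40), with an SE of 0.27 for Zim1. Leaving Zim1 aside, the mutant library of E12.0 was lower for Plagl2 (5.32 against 14.6 FPKM), Peg10 (40.5 against 105) and Plagl1 (26.4 against 50.1). It was also lower for Dlx5 (14.3 against 33.3) and Ago2 (7.55 against 16.6). Mirg was higher there. At E12.5 each of these 6 signs was the opposite.

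Likeness of pattern was read as Pearson's r of log2(FPKM + 1) over the 8 libraries, among 10868 genes, as a description only, since the points share libraries and the stages set most of it. For Igf2 the closest genes were Nid1 (r = 0.996), Col1a2 (0.996) and H19 (0.995), the first a basement membrane gene and the second a collagen of fibroblasts. For H19 they were Fxyd5, Igf2 and Mmp2 (0.996, 0.995 and 0.994). For Snrpn they were Atp6v1c1, Camk2n1 and Snap91 (0.9994 to 0.9995), the last 2 genes of mature neurons. That likeness rests on the whole Snrpn rows, in which the late level was above the early one. The late sum over shared transcripts was below the early row, but those are not like measures. Peg3 was nearest to Cs, Fndc3b and Zfp398, Ndn to Atxn7l3b, Ppm1f and Lhx1os, and Magel2 to Eif3f, Agrn and Sesn2. Dlk1 was nearest to Midn, Cyb561d1 and Plxnb1, Meg3 to Ebf2, Elavl1 and Fbxo30, Cdkn1c to Nr1h2, Ntn4 and Kti12, and Grb10 to Clic4, Zfp516 and Yap1. After each stage's mean was taken off, the genes nearest to Igf2 were Cd248, Slc41a1 and Fkbp10 (0.982, 0.975 and 0.964), and those nearest to H19 were Vtn, Pcdh18 and Hba-a2. Igf2 and H19 then had an r of 0.884, Cdkn1c and Grb10 0.913, Magel2 and Dlk1 0.881, and Dlk1 and Meg3 0.866. Ndn and Magel2, neighbours in 1 domain, had an r of 0.262.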

How the data were processed

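Deposited FPKM tables were used as given, 1 per library. Per the labels' protocols, barcoded libraries of pooled RNA were sequenced paired-end for 100 cycles on a HiSeq 2500. Per the submitters' processing notes, the authors used TopHat, Cufflinks and build mm9, with no versions. The early files held 23737 gene rows, 8 of them without a gene name (0.0285% to 0.0360% of FPKM), and the E17.5 files 32952 transcript rows. Rows of a symbol were summed, and a row naming several genes was given to the first. Small RNA genes carried 9.87% to 24.5% of FPKM. Where the mean over a test's libraries reached 1 FPKM, a gene was tested on log2(FPKM + 1), which understates changes of low genes, with limma 3.58.1 (R 4.3.3), a variance trend, two-sided, at an adjusted threshold of 0.05. E17.5 used 4 libraries. E12 used 4 libraries with stage as a block, so its spread is how far E12.0 and E12.5 disagree. The joint test and the test of whether the stages differ took all 8 libraries. The limma step was tested on simulated data. Depth was read from single-transcript rows over 2500 nt, less 170 nt of fragment. Replicate numbers at E17.5 did not pair the libraries by label. All 10 imprinted genes are described. Other imprinted genes, domains, IGF, inhibitor and MAGE lists are given by counts, with the 3 largest differences of a list and the neighbours as the genes that could be named. Members and lists were chosen with earlier results of these data known. Markers of meninges, choroid plexus, telencephalon, hypothalamus and other cell types were summed per library. Alternatives changed the pseudocount, filter, scaling, trend, row joining, blocks and libraries. Shared transcripts and leaving out both E12.0 libraries were added after the data were seen. Python 3.11.15, numpy 2.4.6, pandas 2.3.3 and matplotlib 3.10.9 were used.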

Additional observations from a re-analysis of the deposited data

Results flagged for a closer look

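In 6 of the 10 genes the sign of the mutant difference was not the same in the 2 early pairs, as in 51.8% of the 11952 genes tested at E12. With 1 library per genotype at each stage, the difference between the stages was not tested. On the scale of log2(FPKM + 1), the Dlk1 difference was -0.88 in the E12.0 pair and 0.0564 in the later pair, and that of Magel2 -0.68 and 0.13. Meg3 differed by -0.36 and 0.0482, and Peg3 by -0.34 and 0.31. Ndn turned the other way, with 0.0719 and -0.108, and Grb10 was at -0.00726 and 0.17. Over all genes the median absolute difference was 0.20 in the E12.0 pair and 0.082 in the E12.5 pair, above the E12.5 values of Dlk1 and Meg3 and the E12.0 values of Ndn and Grb10. Igf2, H19, Snrpn and Cdkn1c kept 1 direction at both stages.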

How the results depend on the processing

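The count of the 10 genes past the adjusted threshold stayed at 0 under each alternative run except at E12, where leaving out 1 library gave 0 to 3. The single-gene differences, all uncalled, kept direction and side in 421 of 440 comparisons with other settings, and 19 changed sign. Quantile normalization moved Snrpn (0.00714) and Meg3 (0.0165) at E17.5 and Peg3 (0.000526) at E12. Without small RNA genes Meg3 was at 0.0126 at E17.5 and Peg3 at -0.00618 over all stages. Shared transcripts turned Snrpn at E17.5 (0.22) and over all stages (0.0579) and Dlk1 at E17.5 (0.20). Without both E12.0 libraries the E12 values were 0.31 (Peg3), 0.13 (Magel2), 0.0564 (Dlk1) and 0.0482 (Meg3). The values over all stages were then 0.00944 (Meg3) and 0.0842 (Igf2), and the differences between stages -0.28 (Peg3), -0.34 (Magel2), -0.20 (Dlk1), -0.0582 (Meg3) and -0.0442 (Grb10). The causes were not tested.

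With 1 library left out, 192 of 240 single-gene values kept direction and side and 43 changed sign. The rest kept direction and passed the threshold, all at E12, where such runs are not read for calls. An arm left with 1 library took its spread from the other libraries. At E17.5 the ranges were -0.0574 to 0.105 (Peg3), -0.0917 to 0.0222 (Snrpn), -0.0479 to 0.028 (Meg3), -0.0731 to 0.578 (Igf2) and -0.0394 to 0.389 (H19). At E12 they were -0.34 to 0.31 (Peg3), -0.108 to 0.0719 (Ndn), -0.68 to 0.13 (Magel2), -0.88 to 0.0564 (Dlk1), -0.36 to 0.0482 (Meg3) and -0.00726 to 0.17 (Grb10). Over all stages they were -0.0968 to 0.118 (Peg3), -0.125 to 0.00944 (Meg3), -0.309 to 0.0842 (Igf2) and -0.178 to 0.0583 (H19). For the difference between stages they were -0.28 to 0.36 (Peg3), -0.34 to 0.47 (Magel2), -0.20 to 0.74 (Dlk1), -0.0582 to 0.346 (Meg3), -0.0504 to 0.272 (Cdkn1c) and -0.061 to 0.15 (Grb10).

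Over all genes the E17.5 count was 1, and 0 without a filter or with a mean of at least 5 FPKM, and 1 to 44 with 1 library left out. The E12 count was 4. It was 1 with pseudocount 5, no filter, quantile normalization or no trend, 2 without small RNA genes, 78 without the stage block, 488 with the spread of all 8 libraries, 52 without both E12.0 libraries, and 50 to 2416 with 1 library left out. The count for the difference between stages was 4. It was 1 with pseudocount 0.1 or 5 or quantile normalization, 0 without a filter or with a mean of at least 5 FPKM, and 2 without small RNA genes or with the highest row per symbol. It was 49 without both E12.0 libraries and 0 to 1438 with 1 library left out. The replicate block gave 16 genes at E17.5 and 1 for the difference between stages, and 0 of the 10 genes in either. Deviations of same-numbered E17.5 libraries had an r of 0.028 over genes, so the numbers were not taken as pairs. Residual degrees of freedom were 2 at E17.5 and 1 at E12, and early depth was not firm, which limits what these tests can call.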
